A study of Mus musculus with 5 samples.

Results

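Syndecans and glypicans, the main families of heparan sulphate proteoglycans at the cell surface, were examined in knee joints of wildtype mice and of mice lacking both epiphycan (Epyc) and biglycan (Bgn). The genes were Sdc1, Sdc2, Sdc3 and Sdc4 of the syndecan family and Gpc1, Gpc3, Gpc4 and Gpc6 of the glypican family, and their members were all probe sets annotated to 1 of these 8 symbols. A probe set is a group of short oligonucleotides on an Affymetrix array that reads 1 transcript. The 8 genes, of 12393 with a symbol of their own on the array, gave 17 probe sets of 22626 other than array controls: 4 for Sdc1, 3 each for Sdc2 and Sdc3, 2 each for Sdc4 and Gpc6, and 1 each for Gpc1, Gpc3 and Gpc4.

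The mice were males of the C57/Bl6:129 hybrid strain, 3 months old, and RNA came from tibio-femoral joints taken whole. One group was wildtype (2 pools) and the other was null for epiphycan and biglycan together (3 pools). A pool joined the 6 joints of 3 mice and was read on 1 array, so the spread given here is between pools and not between single mice. The sources used here do not state how the null alleles were made or whether the wildtype mice were littermates. The arrays were deposited as 2 value tables under 2 platform records: wildtype pool 2 and double-null pool 3 in 1 (table A), and wildtype pool 1 with double-null pools 1 and 2 in the other (table B).

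Both families carry heparan sulphate, a sulphated sugar chain that binds growth factors, morphogens, chemokines and matrix proteins and so holds ligands close to their receptors. Syndecans cross the membrane and have a short cytoplasmic tail that binds scaffold proteins and the actin cytoskeleton, and their outer part can be shed by proteases. Glypicans are tied to the membrane by a glycosylphosphatidylinositol anchor, can be released by cleavage near that anchor, and are known for tuning hedgehog, Wnt, BMP and fibroblast growth factor signals, among them signals of the growth plate. Biglycan and epiphycan, by contrast, are secreted matrix proteoglycans with chondroitin or dermatan sulphate chains.

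The values were signals on a linear scale, each array having a 2% trimmed mean near 250.1, and having so few arrays limits the precision of every value. Bgn, the check of the labels, read between 2003 and 4063 over its 3 probe sets on the wildtype arrays and between 7.05 and 224 on the double-null arrays, and each probe set passed the adjusted threshold of 0.05 in the limma fit described below. Epyc read 91.2 and 78.8 on the wildtype arrays and at most 10.8 on the double-null arrays, and it missed that adjusted threshold (limma adjusted p = 0.16). Markers of joint tissues were well represented: 7 of 8 cartilage markers, 5 of 5 measured bone markers, 7 of 8 fibroblast and tendon markers and 6 of 6 muscle fibre markers lay above the highest of 27 Bacillus control probe sets on every array. Those controls have no target in mouse RNA, and the highest of them ran from 27.5 to 63.5 between arrays. Among the syndecan and glypican probe sets, 13 of 17 lay above the highest control on all 5 arrays. The others were Gpc3 (on 0 of 5 arrays), Sdc1 1448158_at (1 of 5), Sdc3 1420853_at (3 of 5) and Sdc1 1415944_at (4 of 5).

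Sdc2 was the member with the most different signal between the genotypes, and it lay higher in the double-null joints on all 3 of its probe sets. Syndecan 2 is the syndecan of mesenchymal cells such as fibroblasts, and it is involved in assembly of the fibronectin and laminin matrix and in growth factor signalling. On probe set 1448545_at the signals of wildtype pools 1 and 2 were 318 and 243, and those of double-null pools 1 to 3 were 505, 734 and 594. On 1417012_at the wildtype signals were 78.5 and 68.0, and the double-null signals 143, 190 and 172. On 1417011_at the wildtype signals were 215 and 132, and the double-null signals 334, 353 and 231. All 3 double-null signals thus exceeded the 2 wildtype signals on each Sdc2 probe set, with the narrowest gap on 1417011_at, between wildtype pool 1 and double-null pool 3.

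**Figure D1:**
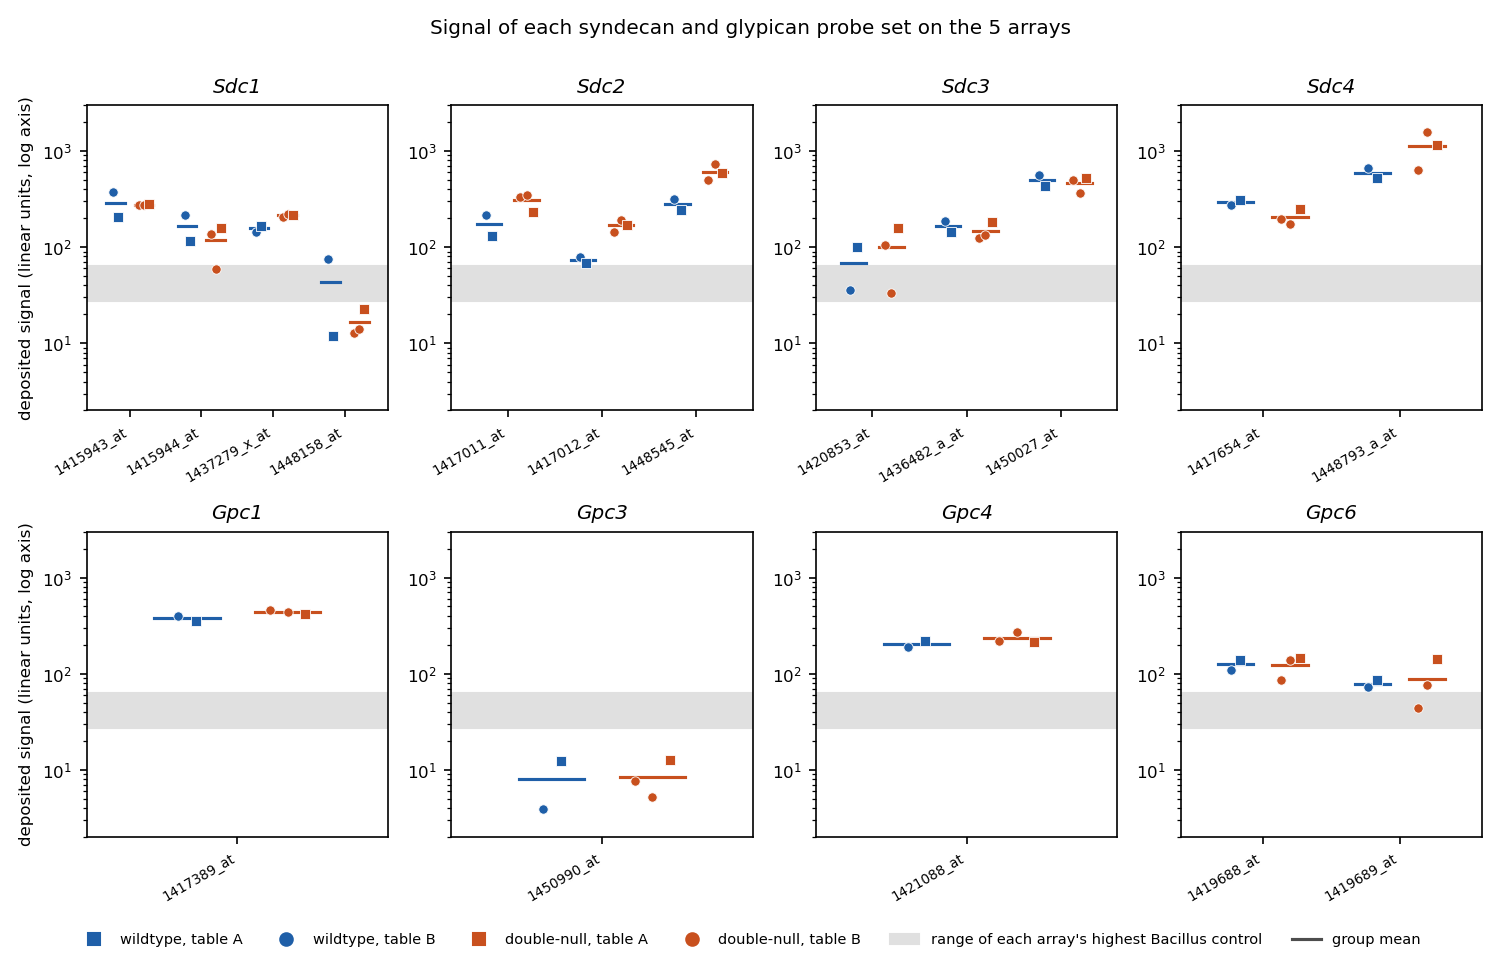
Deposited signal (linear units on a log axis) of the 17 syndecan and glypican probe sets, 1 panel per gene, with wildtype arrays in blue, double-null arrays in orange, table A as squares and table B as circles. Short lines are group means, and the grey band spans the highest Bacillus control of each array, from 27.5 to 63.5. For each of the 3 Sdc2 probe sets all double-null points sit above both wildtype points, while the Gpc3 points sit below the band on all 5 arrays.

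The difference was estimated as a log2 fold change (double-null over wildtype) of log2(signal + 32) values after quantile normalisation, with the deposited table as a term in the limma fit. That scale understates the change of dim probe sets. The log2 fold change was 1.03 ± 0.21 (SE) for Sdc2 1448545_at, a 2.04-fold difference with a 95% interval of 0.53 to 1.52. It was 0.96 ± 0.21 for 1417012_at (1.95-fold) and 0.65 ± 0.16 for 1417011_at (1.57-fold). In group means, 1448545_at read 281 ± 52.7 in wildtype (SD, n = 2) and 611 ± 115 in double-null pools (n = 3). The limma unadjusted p was 0.0019, 0.0027 and 0.0058 in the same order, but none passed after Benjamini-Hochberg adjustment over all 22626 probe sets (adjusted p = 0.53, 0.57 and 0.71). The 3 Sdc2 probe sets are annotated to 1 and the same transcript record and were read on the same arrays, so they are repeated readings of a transcript and not separate evidence. With 2 pools against 3 there are 10 ways to split the arrays, and an exact permutation test of a single probe set could not go below 0.1.

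Within each table the Sdc2 difference had the same sign and a similar size. In table A, where double-null pool 3 is set against wildtype pool 2, the log2 differences were 1.22 for 1448545_at, 1.02 for 1417012_at and 0.69 for 1417011_at. In table B, where the mean of double-null pools 1 and 2 is set against wildtype pool 1, they were 0.88, 0.92 and 0.62. A test of whether the difference itself differed between the tables gave limma unadjusted p = 0.45, 0.84 and 0.85. That test had 1 residual degree of freedom besides the prior, so these p values do not show that the tables agree. The groups did not overlap on any Sdc2 probe set, so the sign could not differ between the tables or on removing a pool. Only the sizes are informative here. A fit lacking either array of table A returns the table B contrast, and one lacking wildtype pool 1 returns that of table A. Leaving out any single pool kept the log2 fold change of 1448545_at between 0.88 and 1.23, and both ends are such repeats. Over 17 alternative settings it stayed between 0.84 and 1.23, with an adjusted p from 0.10 to 0.96 in the 16 that allow a test, so it passed in 0 of them. The smallest of these came from testing only the brightest probe set of each gene above the 40th percentile of mean signal.

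**Figure D2:**
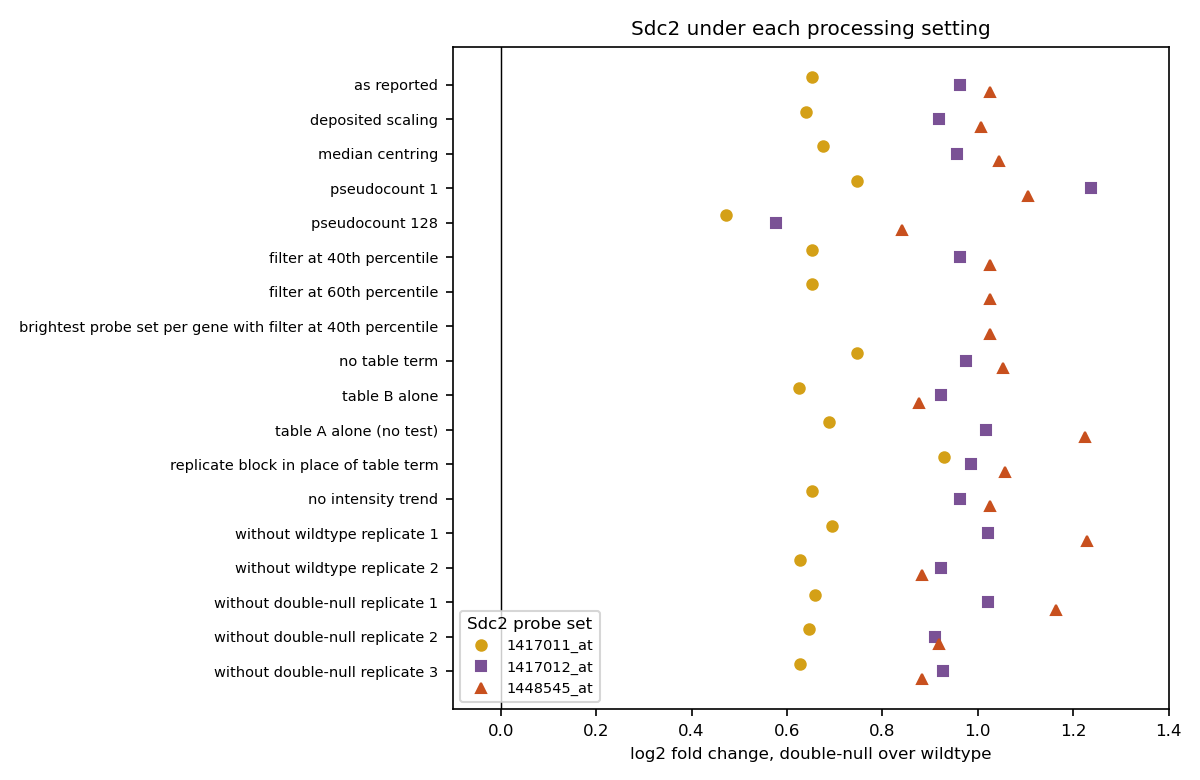
Log2 fold change (double-null over wildtype, x axis) of the 3 Sdc2 probe sets under the reported setting and each alternative (y axis), with 1 symbol per probe set. All points lie to the right of 0, and the lowest values, 0.47 for 1417011_at, 0.58 for 1417012_at and 0.84 for 1448545_at, come with the larger added constant.

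The fibroblast and tendon markers, measured on the same arrays, also lay higher in the double-null joints. The log2 fold change was positive for 7 of the 8 markers, the median being 0.46. After quantile normalisation all double-null arrays exceeded both wildtype arrays for 6 of them, as 8.92% of all genes did, but the deposited signals of 1 of these, the matrix proteoglycan gene Dcn, overlapped. None passed the adjusted threshold, against 0.0161% of all genes. The list was chosen with earlier results of these data known, so setting its counts beside these shares is no test of it. Col3a1, the chain of type III collagen, read 3656 and 3221 in the wildtype pools and 9252, 8153 and 10072 in the double-null pools (log2 fold change 1.46 ± 0.20, limma adjusted p = 0.27). Tnmd, encoding the tendon protein tenomodulin, was at 1.03 ± 0.23 (adjusted p = 0.57), and Thy1, a surface marker of fibroblasts, was at 0.59 ± 0.20 (adjusted p = 0.85). The 1 marker that was not positive was Col1a1, a chain of type I collagen, with overlapping groups (-0.039 ± 0.15). It read 18916 and 11160 in wildtype and 11208, 16753 and 15917 in double-null pools. The summed signal of the 8 markers ran from 20455 to 30904 in wildtype and from 29570 to 35931 in double-null pools, so the sums overlapped. Col1a1 was the largest part of each sum, and none of the markers was at 0. The part of these cells in the Sdc2 signal was not tested. In RNA from whole joints more cells of a type and more RNA per cell cannot be told apart.

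Sdc1, the syndecan of epithelia and of antibody-secreting plasma cells, gave no common direction over its 4 probe sets. On its brightest, 1415943_at, the wildtype signals were 371 and 207 and the double-null signals 272, 276 and 284, so the double-null pools lay close together between the wildtype pools. The log2 fold change was -0.041 ± 0.22, with a 95% interval of -0.56 to 0.48. On 1415944_at the wildtype signals were 217 and 116 and the double-null signals 139, 59.7 and 157 (-0.39 ± 0.40). Probe set 1448158_at gave wildtype signals of 74.6 and 12.0 and double-null signals of 12.8, 14.0 and 22.7 (-0.55 ± 0.32), so that wildtype pool 1 alone was above the controls. On 1437279_x_at the order was different: wildtype signals of 145 and 167 lay below double-null signals of 206, 220 and 217. That log2 fold change was 0.44 ± 0.18 (limma unadjusted p = 0.045, adjusted p = 0.91). The limma unadjusted p was under 0.05 in 7 of the 15 alternative settings that allow a test of it, and in none of those with a single pool left out, where it ran from 0.071 to 0.26. Probe sets with the suffix x can hold oligonucleotides that also match other transcripts, so this reading need not come from Sdc1 alone.

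The markers of the cell types that Sdc1 is known to mark gave no common direction either. Of the 6 measured plasma cell markers 4 were positive and 2 negative, with a median log2 fold change of 0.042. Jchain, the joining chain of secreted antibodies, had the smallest p of these markers. It read 1649 and 2003 in wildtype and 4684, 3689 and 2415 in double-null pools (0.83 ± 0.25, limma adjusted p = 0.79). Its log2 difference was 0.27 in table A and 1.25 in table B. Next by p were Tnfrsf17, below the highest control on every array, at -0.27, and Igha at 0.25 with overlapping groups. The summed signal of the plasma cell markers ran from 7295 to 8328 in wildtype and from 7597 to 13311 in double-null pools, and none was at 0. Epithelial and skin markers were near the controls: 2 of 8 lay above the highest control on every array, with summed signals of 303 to 357 in wildtype and 261 to 342 in double-null pools. The part of either cell type in the Sdc1 signal was not tested.

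Sdc3, a syndecan of nerve and of the developing skeleton, differed by less than the spread between pools on its brightest readings. Probe set 1450027_at read 557 and 432 in wildtype and 506, 367 and 525 in double-null pools, with a log2 fold change of -0.086 ± 0.22 and a 95% interval of -0.60 to 0.43. Probe set 1436482_a_at read 186 and 145 against 125, 134 and 183 (-0.091 ± 0.22). Wildtype pool 1 was highest on both, while double-null pool 1 was lowest on 1436482_a_at and above wildtype pool 2 on 1450027_at. The dim probe set 1420853_at read 36.2 and 102 in wildtype and 106, 33.3 and 159 in double-null pools (0.53 ± 0.37), with the lowest signals in wildtype pool 1 and double-null pool 2. Leaving out double-null pool 1 lowered its log2 fold change to 0.22, and leaving out double-null pool 2 raised it to 0.83, so single pools decide its size.

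Sdc4, the widely expressed syndecan of focal adhesions, gave opposite directions on its 2 probe sets, although both are annotated to the same transcript record. On 1448793_a_at the wildtype signals were 670 and 521, and the double-null signals 639, 1582 and 1153. Double-null pools 2 and 3 lay above both wildtype pools there and double-null pool 1 between them, giving a log2 fold change of 0.80 ± 0.37 (limma unadjusted p = 0.072, adjusted p = 0.92). That value became 1.15 when double-null pool 1 was left out, and 0.52 when double-null pool 2 was. On 1417654_at the wildtype signals were 276 and 310, and the double-null signals 197, 173 and 247. Here every double-null array lay below both wildtype arrays, with a log2 fold change of -0.40 ± 0.17 (unadjusted p = 0.058, adjusted p = 0.92). The ratio of the brighter to the dimmer reading within an array was 2.43 and 1.68 in the wildtype pools and 3.24, 9.12 and 4.67 in the double-null pools. That ratio was higher in every double-null pool than in both wildtype pools. It was not tested, and no share over other pairs of probe sets was computed to set beside it. No direction can be given for the gene from the 2 readings together. Probe sets with the suffix a can match more than 1 transcript form of their gene. Whether forms of Sdc4 differ between the genotypes was not tested.

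The probe sets of a gene can be set against each other by the root mean square difference of their log2 values over the 5 arrays, each centred on its own mean. It was 0.12 between Sdc2 1417012_at and 1448545_at, and 0.28 and 0.30 between either of them and 1417011_at. For Sdc3 it was 0.14 between the brighter readings and 0.59 to 0.64 against the dim one. For Gpc6 it was 0.23, for Sdc1 it ran from 0.29 to 0.63, and for the Sdc4 pair it was 0.79, the widest of the 14 pairs. The Sdc2 readings were thus close to each other over the arrays, and those of Sdc4 and part of those of Sdc1 were not.

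Gpc1, a glypican of muscle and nervous tissue that binds fibroblast growth factors, differed little between the pools. Its signals were 401 and 356 in wildtype and 464, 439 and 414 in double-null pools, so the groups did not overlap. The difference was small, at a log2 fold change of 0.18 ± 0.14 (1.13-fold, 95% interval -0.16 to 0.53, limma unadjusted p = 0.25, adjusted p = 0.95). The interval does not include a doubling in either direction.

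Gpc4, a glypican known for its part in Wnt signalling, read 190 and 219 in wildtype and 218, 270 and 211 in double-null pools. The groups overlapped, and the log2 fold change was 0.18 ± 0.19 with a 95% interval of -0.28 to 0.64 (limma adjusted p = 0.98). Gpc3, which restrains hedgehog signalling and whose loss causes overgrowth, was not distinguishable from the controls. It read 3.93 and 12.2 in wildtype and 7.65, 5.21 and 12.5 in double-null pools, below the highest Bacillus control on all 5 arrays, so its log2 fold change of 0.061 has no use as a size. In the RefSeq gene table of assembly GRCm38.p6, Gpc3 and Gpc4 are direct neighbours on the chromosome that also carries Bgn, with 0 protein-coding genes between them.

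Gpc6, the glypican whose loss shortens the limbs in humans and mice, gave no difference beyond the spread between pools. Probe set 1419688_at read 110 and 140 in wildtype and 86.4, 140 and 145 in double-null pools (log2 fold change 0.064 ± 0.22, 95% interval -0.47 to 0.60). Probe set 1419689_at read 71.9 and 85.7 against 44.4, 76.7 and 142 (0.19 ± 0.25). Double-null pool 1 was the lowest array and double-null pool 3 the highest on both, so the spread among the double-null pools covered the wildtype values.

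**Figure D3:**
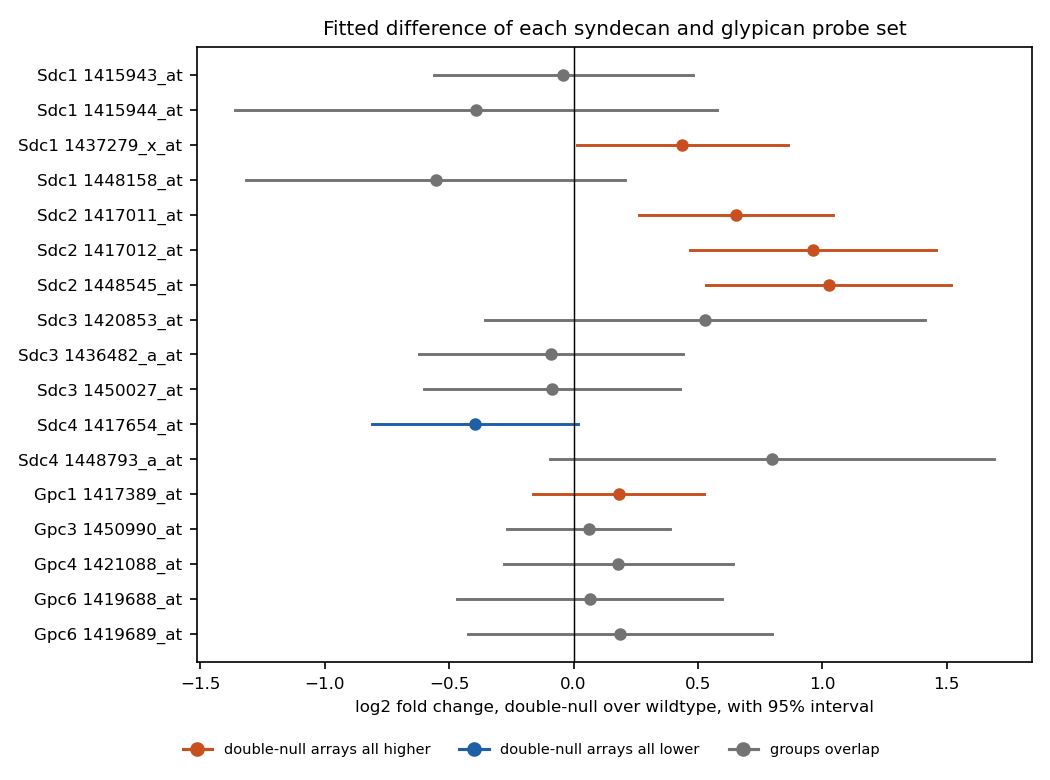
Fitted log2 fold change (double-null over wildtype, x axis) of each of the 17 probe sets (y axis), with its 95% interval from limma without adjustment for multiple testing. Orange marks probe sets with all double-null arrays above both wildtype arrays (5), blue the 1 with all below, and grey those with overlapping groups. The 3 Sdc2 intervals and that of Sdc1 1437279_x_at lie to the right of 0.

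No filter on low values was set, so all 17 probe sets were tested, 14 of them above the 40th percentile of mean signal. In all, 0 of the 17 probe sets passed the adjusted threshold of 0.05, where 6 of 22626 (0.0265%) did over the whole array. Those 6 include the 3 probe sets of Bgn, a gene that is itself null in these mice. The adjusted p of the 17 member probe sets ran from 0.53 to 0.996. At an unadjusted p under 0.05 there were 4 of 17, the 3 of Sdc2 and Sdc1 1437279_x_at, all higher in the double-null pools, against 5.35% of all probe sets in both directions and 2.93% in that direction; 0 of 17 were lower, against 2.42%. The groups did not overlap, with the double-null arrays higher, for 5 of 17, against 9.24% of all probe sets, and with them lower for 1 of 17, against 9.93%. Since 3 of those 4 and 3 of those 5 come from Sdc2 alone, the counts hold fewer genes than probe sets: Sdc1 and Sdc2 for the former, and Sdc1, Sdc2 and Gpc1 for the latter. The median log2 fold change was 0.18 over the 17 probe sets and -0.0039 over all probe sets. Of the 17 log2 fold changes 11 were positive, and of all probe sets 49.2% were.

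The direction of 8 of the 17 probe sets differed between the tables. Both tables gave the same sign for 9 of 17, against 48.2% of all probe sets: the 3 of Sdc2, the 2 of Sdc4, Sdc1 1437279_x_at, Sdc3 1420853_at, Gpc1 and Gpc6 1419688_at. Sdc1 1415943_at was at 0.41 in table A and -0.38 in table B, 1415944_at at 0.35 and -0.95, and 1448158_at at 0.26 and -1.16. Sdc3 1450027_at was at 0.28 and -0.36, and 1436482_a_at at 0.28 and -0.37. Each of these 5 readings was highest in wildtype pool 1, the only wildtype pool of table B. Without that pool their log2 fold changes became 0.41, 0.35, 0.26, 0.28 and 0.28 in the order given. Only table A then holds both genotypes, so these values repeat those of table A and are no separate evidence. Gpc4 was at -0.045 in table A and 0.35 in table B, and at -0.045 without wildtype pool 1. Gpc6 1419689_at was at 0.55 and -0.085, and Gpc3, below the controls, at -0.037 and 0.13. The test of the difference between tables passed for 0 of 17 after adjustment in limma and for 0 of all probe sets. That test had 1 residual degree of freedom besides the prior, so it could find only large differences. At an unadjusted p under 0.05 it gave Sdc1 1448158_at only (limma unadjusted p = 0.0073), against 6.20% of all probe sets. Each table holds a single wildtype pool, so the pool and the table cannot be told apart.

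**Figure D4:**
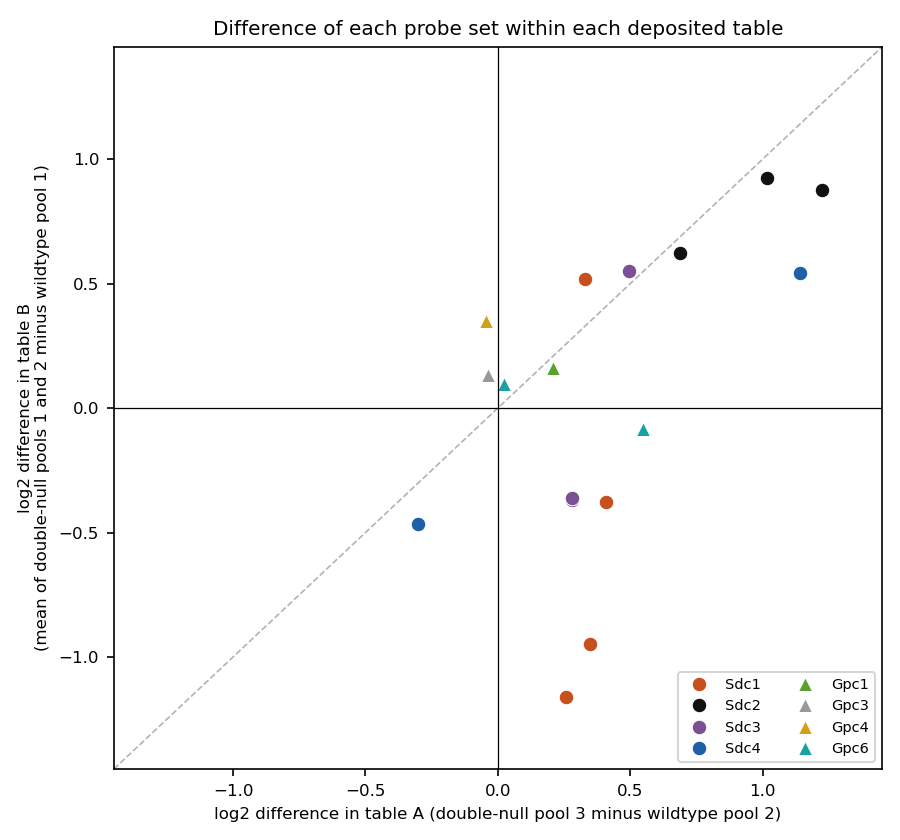
Log2 difference of each of the 17 probe sets within table A (x axis) and within table B (y axis), with circles for syndecans and triangles for glypicans, and a dashed line where both are equal. The 3 Sdc2 points lie in the upper right near the line, at 0.69 to 1.22 in table A and 0.62 to 0.92 in table B, while 3 Sdc1 points and 2 overlying Sdc3 points lie in the lower right, with opposite signs in the 2 tables.

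The genes that make and use heparan sulphate were examined in 5 lists, each gene on its brightest probe set. Of 95 listed genes 86 had a probe set with that symbol alone, and 0 of them passed the adjusted threshold in limma, against 0.0161% of all 12393 genes. At an unadjusted p under 0.05 there were 2 of 86 higher and 2 of 86 lower, against 2.87% and 2.53% of all genes, and the medians of the lists ran from -0.013 to 0.054. The enzymes of chain synthesis and sulphation had 23 measured genes, 12 positive and 11 negative, with a median of 0.020. Hs6st2, a 6-O-sulphotransferase, had the smallest p, at 4.06 and 14.8 in wildtype and 17.4, 27.2 and 44.5 in double-null pools (log2 fold change 0.63 ± 0.16, adjusted p = 0.71). It was above the highest control on 1 of 5 arrays, so this size depends on the added constant. The 3-O-sulphotransferase gene Hs3st1 was at 0.30 and the epimerase gene Glce at -0.25, and both missed the threshold.

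Enzymes that edit or shed the proteoglycans were listed together with Timp3, which encodes an inhibitor of metalloproteinases. The list had 9 measured genes with a median of 0.054, 5 positive, Timp3 among them at 0.14, and 4 negative. The gelatinase Mmp9, which can cut syndecan ectodomains, was at -0.28 (limma adjusted p = 0.92), the convertase Furin, which cleaves glypicans, at -0.28, and the 6-O-endosulphatase Sulf2 at 0.28. Partners of the syndecan tail had 14 measured genes with a median of -0.013, 6 positive and 8 negative. Cttn, encoding the actin-binding protein cortactin, read 359 and 339 in wildtype and 504, 507 and 426 in double-null pools (0.40 ± 0.14, limma adjusted p = 0.88). Its groups were apart, the only 1 of the 14 genes with the double-null arrays all higher, against 8.92% of all genes. The small GTPase gene Rhog was at -0.24, and Sdcbp2, a relative of syntenin, was below the highest control on every array.

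Other proteoglycans of the cell surface and basement membrane had 7 measured genes with a median of -0.011. Agrn, encoding the heparan sulphate proteoglycan agrin, read 126 and 115 in wildtype and 76.1, 70.0 and 80.4 in double-null pools (-0.47 ± 0.21, limma adjusted p = 0.92). Col18a1, encoding the collagen core protein that carries endostatin, read 104 and 118 against 200, 152 and 145 (0.48 ± 0.23, adjusted p = 0.92). Both had their groups apart in opposite directions, while Hspg2, encoding perlecan, overlapped (-0.12 ± 0.20). Of the 7 genes 1 was thus apart with the double-null arrays higher and 1 with them lower, against 8.92% and 10.8% of all genes.

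Ligands and receptors that bind heparan sulphate were listed together with other genes of the hedgehog pathway, such as Gli1, Smo and Ptch1. The list had 33 measured genes with a median of 0.017, 18 positive and 15 negative. Met, the receptor of hepatocyte growth factor, read 50.0 and 57.5 in wildtype and 15.2, 25.0 and 14.5 in double-null pools (-0.75 ± 0.19, limma adjusted p = 0.71). Fgf9, a fibroblast growth factor of the skeleton, read 70.8 and 50.7 against 26.0, 23.6 and 25.8 (-0.68 ± 0.19, adjusted p = 0.79). For both the wildtype pools lay above the highest control of their arrays and the double-null pools below it, so the sizes depend on the added constant. Shh was above the control on 1 of 5 arrays.

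By pattern over the 5 arrays, the genes nearest to Sdc2 1448545_at were Gmfb, encoding glia maturation factor beta, Ghitm, encoding a mitochondrial inner membrane protein, and Pnp, encoding purine nucleoside phosphorylase. Their root mean square differences from it were 0.11, 0.15 and 0.15 on the centred log2 scale. The genes nearest to Gpc1 were Syap1 (0.020), Lrrc59 (0.021) and Dnajc10 (0.025), all with small differences between the pools. With so many genes and 5 arrays, such likeness describes these pools only.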

How the data were processed

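Per the labels' protocols, pooled joint RNA was purified with Trizol followed by RNeasy columns, biotin-labelled by in-vitro transcription and read on Affymetrix chips. The deposited values are linear signal intensities per probe set, made by the authors with MAS5 per the submitters' processing notes (version and target value not given in the sources used here). Detection calls were not used here, so 27 Bacillus control probe sets served as the background. Of 22690 probe sets 64 were array controls. The platform annotation gave 1 symbol to 20393, several to 691 and none to 1606. For 20364 of those with 1 symbol, the symbol was taken from the RefSeq gene table by Entrez number, whether or not it changed.

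Quantile normalisation was applied to log2(signal + 32), and all 22626 other probe sets were fitted without a filter in limma 3.58.1 (R 4.3.3; lmFit, eBayes with trend, two-sided test, degrees of freedom 2 residual and 4.57 prior, Benjamini-Hochberg, threshold 0.05), with genotype and deposited table as terms. The fit was tested on simulated data. Values with SD are deposited signals, and values with SE are log2 fold changes. Correlations between arrays, across probe sets, ran from 0.966 to 0.974. Other settings were the deposited scaling, median centring, constants of 1 and 128, filters at the 40th and 60th percentile, 1 probe set per gene, no table term, each table alone, a replicate block, no trend, and each pool left out.

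All member probe sets were named, with up to 3 genes of smallest p per pathway list, for the marker lists only those beside a member's result, and the 3 genes nearest in pattern for each family. Of the other marker lists, those for satellite cell, endothelium, Schwann cell, adipocyte, macrophage and red cell precursor had medians from -0.094 to 0.20, and muscle fibre -0.20, cartilage -0.090 and bone 0.023. The members and lists were chosen with earlier results of these data known. Promoter and protein sequences were not used here.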

Additional observations from a re-analysis of the deposited data

How the results depend on the processing

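No syndecan or glypican probe set passed the adjusted threshold in any of the 16 settings that allow a test (limma). Over the whole array 6 probe sets passed as reported, 18 with a filter at the 40th percentile, 19 with one at the 60th, 3 with the replicate block in place of the table term, 0 on table B alone, and 0 to 6 with single pools left out (0 without double-null pool 3 or without either wildtype pool). Deviations of same-numbered pools from their group means had correlations of 0.0074 and -0.11 over 2 pairs. These cannot settle whether the numbers pair the pools. The deviations of the 2 wildtype pools mirror each other, and the pools numbered 2 lie in different tables. The numbers were not taken to pair them. The replicate block changed no call of a member.

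The direction held in every setting for 8 of the 17 probe sets: the 3 of Sdc2, the 2 of Sdc4, Gpc1, Sdc1 1437279_x_at and Sdc3 1420853_at. Where the groups did not overlap, as for Sdc2, the direction was bound to hold on removing a pool or taking a table alone. With single pools left out Sdc4 1448793_a_at still ran from 0.52 to 1.15 and Sdc3 1420853_at from 0.22 to 0.83, and the latter was at 0.061 with the replicate block. For the other 9 the log2 fold change changed sign somewhere, and the cause was not tested. Without the table term Sdc1 1415943_at was at 0.014. On table A alone, Sdc1 1415943_at, 1415944_at and 1448158_at were at 0.41, 0.35 and 0.26, Sdc3 1436482_a_at and 1450027_at at 0.28 and 0.28, Gpc3 at -0.037 and Gpc4 at -0.045. On table B alone Gpc6 1419689_at was at -0.085. With the replicate block, Sdc1 1415943_at was at 0.011, Gpc3 at -0.028, and Gpc6 1419688_at and 1419689_at at -0.045 and -0.18. With single pools left out, Sdc1 1415943_at ran from -0.38 to 0.41, 1415944_at from -0.95 to 0.35, 1448158_at from -1.16 to 0.26, Sdc3 1436482_a_at from -0.37 to 0.28, 1450027_at from -0.36 to 0.28, Gpc3 from -0.037 to 0.13, Gpc4 from -0.045 to 0.35, and Gpc6 1419688_at from -0.049 to 0.16 and 1419689_at from -0.086 to 0.55. With only 1 array of table A left, that array is fitted exactly, so those settings give the contrast of table B. Without wildtype pool 1 only table A holds both genotypes, so that setting gives the contrast of table A. The deposited scaling and median centring moved no member by more than 0.053.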
